A study of Mus musculus with 4 samples.

Results

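The T-box, GATA and NK homeobox factors, with the Hand and Twist factors, are families of transcription factors that pattern the heart, limb, gut, blood and parts of the nervous system. Members were taken by gene symbol alone: Tbx, Gata1 to Gata6 and Nkx genes by their numbered names, and Eomes, Tbr1, Hand1, Hand2, Twist1 and Twist2 by name. This gave 38 of the 21689 genes compared, of which 15 were T-box genes (Eomes and Tbr1 included), 6 GATA genes, 13 NK homeobox genes and 4 Hand or Twist genes. All 38 had a usable value in the 4 libraries, and each stood on a single line of the tables.

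RNA was sequenced from mouse retina at postnatal day 12, sorted by flow cytometry into cells that carry Cd73, a surface enzyme of rod photoreceptors and their precursors (Cd73P), and cells that do not (Cd73N). Both fractions came from wild-type retina (WT), taken from normal littermates, and from retina-specific Ezh2 conditional knockout retina (Ezh2-CKO), made by deleting a floxed Ezh2 allele with DKK3-Cre. This driver is active in the embryo in the progenitors of the neural retina, and vessel and blood cells do not arise from these progenitors. Each of the 4 groups (Cd73N WT, Cd73N Ezh2-CKO, Cd73P WT and Cd73P Ezh2-CKO) was 1 library, and the number of retinas pooled at this age is not given in the sources used here. Differences below are therefore between single libraries and carry no p-value.

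Ezh2 is the methyltransferase of the Polycomb complex PRC2, which places trimethylation on lysine 27 of histone H3 and keeps developmental regulators silent outside their own lineages. Transcription factors of these families, whose genes often lie in CpG-rich DNA, are classical Polycomb targets in many tissues. In the eye, Tbx2, Tbx3 and Tbx5 belong to the program of the dorsal retina, Eomes and Tbr1 mark subsets of retinal ganglion cells, and Twist, Hand and several Tbx genes are best known from mesenchyme, heart and vessel walls.

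Values are FPKM, fragment counts scaled to exon length and to the mapped total of the library, so levels can be set side by side between genes. Square brackets hold the lower and upper FPKM bound of the authors' tables, which cover counting error within a library only. Differences are given on the log2(FPKM + 1) scale with a standard error (SE) from those bounds, and the words higher and lower, in counts, mean at least 1.5-fold apart. This scale understates changes of weak genes.

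The labels were checked first. Nt5e, which encodes Cd73, was listed at 0.844 FPKM in Cd73N WT and 0.609 in Cd73N Ezh2-CKO, against 125 and 123 in Cd73P WT and Cd73P Ezh2-CKO. Ezh2 was listed at 14.1 [13.2 to 14.9] in Cd73N WT and 15.9 [15.1 to 16.8] in Cd73N Ezh2-CKO, and at 5.38 [4.9 to 5.86] and 3.45 [3.08 to 3.81] in the same order in Cd73P. In Cd73N the whole-gene value of Ezh2 thus went against the label of the knockout library, and the tables hold no value for the deleted exons alone. Every genotype difference below is therefore between the library labelled Ezh2-CKO and the WT library, with its direction taken from that label.

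Most of these factors were near or at 0 in every library. Only 4 of the 38 (10.5%), Tbx2, Tbx3, Tbx5 and Twist1, reached 1 FPKM in a library, against 60.4% of all genes. A further 11 had their highest value between 0.1 and 1 FPKM, 15 lay over 0 but under 0.1 FPKM everywhere, and 8 (21.1%) were listed at 0 in all 4 libraries, against 13.6% of all genes. These 8 were Gata4, Nkx2-2, Nkx2-3, Nkx2-4, Nkx2-5, Nkx2-6, Nkx3-2 and Hand1, and they include the heart factors Gata4, Nkx2-5 and Hand1. Members listed at 0 numbered 14 in Cd73N WT, 11 in Cd73N Ezh2-CKO, 21 in Cd73P WT and 15 in Cd73P Ezh2-CKO, which is 36.8%, 28.9%, 55.3% and 39.5%. Over all genes the same shares were 18.9%, 16.3%, 22.6% and 21.7%. Depth is unknown from these tables, so a listing at 0 sets no upper limit on the level.

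**Figure D1:**
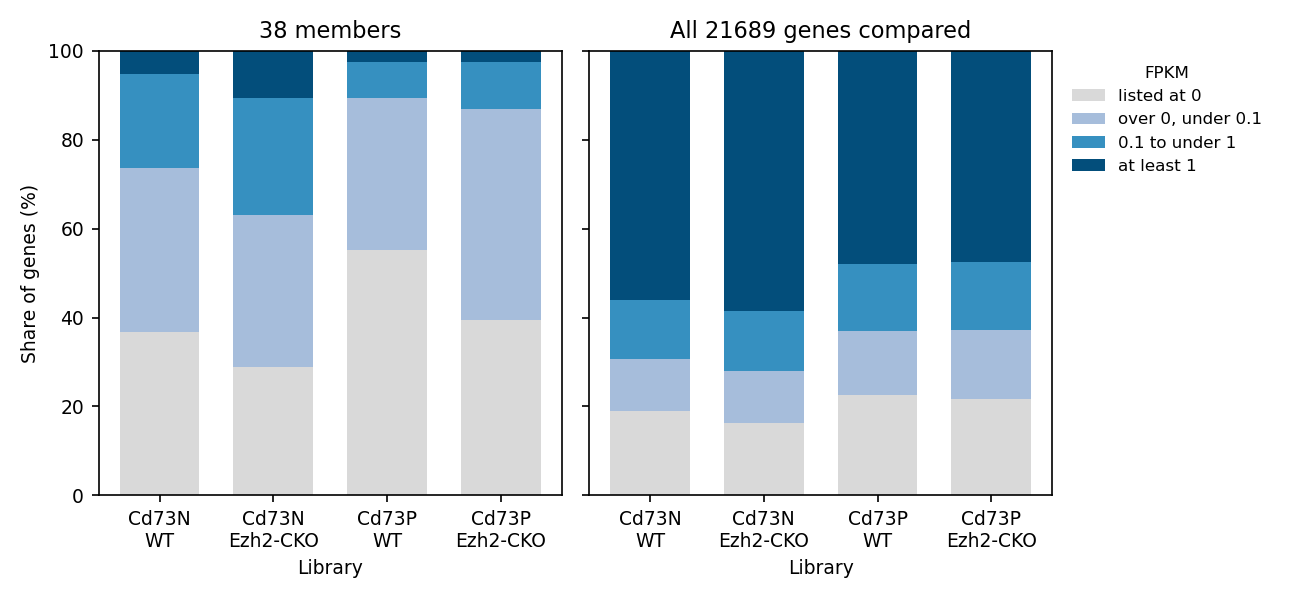
Share of genes (%) in 4 FPKM classes in each library, for the 38 members on the left and all 21689 genes on the right. Members of at least 1 FPKM make up 2.63% to 10.5% of a bar on the left, while genes of at least 1 FPKM make up 47.5% to 58.5% of a bar on the right.

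Tbx2, a T-box repressor of the dorsal retina that is also known from cone specification in zebrafish, was by far the most abundant member (chr11:85646117-85655450 on mm9). It was listed at 83.9 FPKM [78 to 81.8] in Cd73N WT, 59.5 [55.2 to 58.1] in Cd73N Ezh2-CKO, 4.34 [3.83 to 4.71] in Cd73P WT and 1.9 [1.63 to 2.17] in Cd73P Ezh2-CKO. Both Cd73N libraries stood far above both Cd73P libraries, and within each fraction the library labelled Ezh2-CKO was the lower. In both Cd73N libraries the listed value exceeded both of its bounds. The genotype difference was -0.49 on the log2 scale (SE 0.023) in Cd73N, a 1.41-fold lower FPKM that did not reach the 1.5-fold mark, and -0.88 (SE 0.09) in Cd73P, a 2.28-fold lower FPKM that did. The summed FPKM of 9 cone markers was 3810 in Cd73N WT, 5350 in Cd73N Ezh2-CKO, 256 in Cd73P WT and 117 in Cd73P Ezh2-CKO, with 3 of the 9 higher in Cd73N Ezh2-CKO and 7 of the 9 lower in Cd73P Ezh2-CKO. The part of cone RNA in the Tbx2 values was not tested. In sorted bulk RNA, fewer cells of a type and less RNA per cell cannot be told apart.

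Tbx3 and Tbx5, neighbours on chromosome 5 with 150.1 kb between them, pattern the dorsal retina and, elsewhere, the heart and forelimb. Tbx3 (chr5:120120678-120134610) was listed at 1.34 FPKM [1.18 to 1.51] in Cd73N WT, 5.11 [4.79 to 5.44] in Cd73N Ezh2-CKO, 0.0588 [0.027 to 0.0948] in Cd73P WT and 0.166 [0.114 to 0.223] in Cd73P Ezh2-CKO. In both fractions the library labelled Ezh2-CKO was the higher, with bounds that did not overlap. The log2 difference was 1.38 (SE 0.064) in Cd73N, where FPKM was 3.81-fold higher, and 0.14 (SE 0.041) in Cd73P, where both values were under 1 FPKM.

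Tbx5 (chr5:120284672-120335227) was listed at 0.91 FPKM [0.751 to 1.07] in Cd73N WT, 2.48 [2.18 to 2.71] in Cd73N Ezh2-CKO, 0.241 [0.166 to 0.315] in Cd73P WT and 0.0934 [0.0534 to 0.134] in Cd73P Ezh2-CKO. The library labelled Ezh2-CKO was thus the higher in Cd73N and the lower in Cd73P, with bounds apart in each. The log2 difference was 0.87 (SE 0.081) in Cd73N, 2.73-fold on plain FPKM, and -0.18 (SE 0.051) in Cd73P. Tbx4, the hindlimb factor that lies 48.1 kb from Tbx2, was under 0.1 FPKM in all 4 libraries. The 3 dorsal T-box genes therefore did not move as 1 block: in Cd73N, the library labelled Ezh2-CKO had less Tbx2 and more Tbx3 and Tbx5.

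Twist1, a basic helix-loop-helix (bHLH) factor of mesenchyme and neural crest (chr12:34642536-34644696), was listed at 0.681 FPKM [0.45 to 0.901] in Cd73N WT, 2.26 [1.74 to 2.59] in Cd73N Ezh2-CKO, 0.0305 [0 to 0.0668] in Cd73P WT and 0.206 [0.103 to 0.297] in Cd73P Ezh2-CKO. The library labelled Ezh2-CKO was the higher in both fractions, again with bounds apart. The log2 difference was 0.96 (SE 0.13) in Cd73N, 3.33-fold on plain FPKM, and 0.23 (SE 0.063) in Cd73P.

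**Figure D2:**
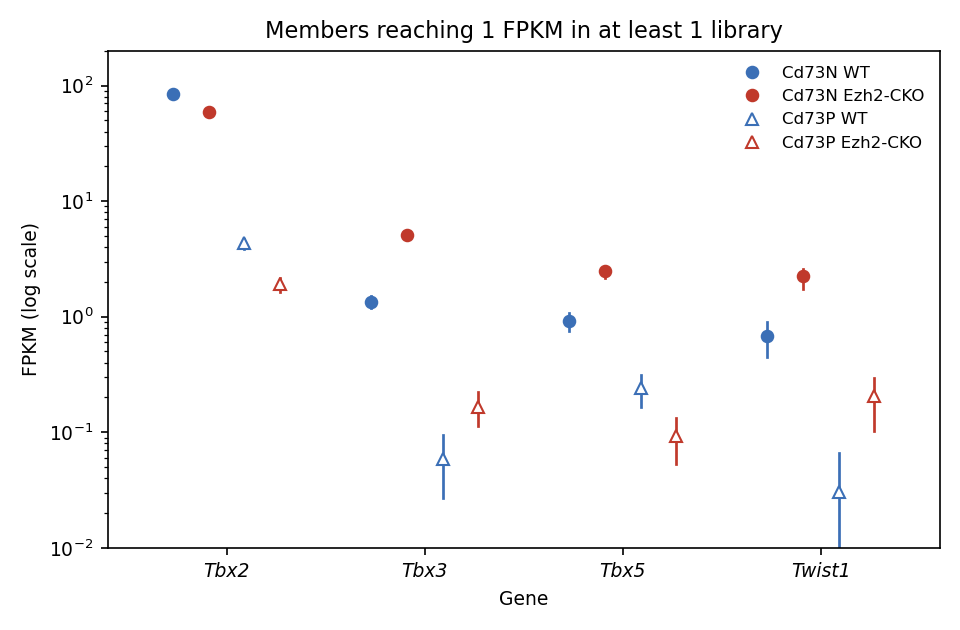
FPKM of Tbx2, Tbx3, Tbx5 and Twist1 in the 4 libraries on a log axis; points are the deposited values, lines run between the deposited bounds (cut at 0.01 FPKM), filled circles are Cd73N, open triangles Cd73P, blue WT and red Ezh2-CKO. Tbx2 goes from 83.9 to 59.5 FPKM between the Cd73N libraries, whereas Tbx3, Tbx5 and Twist1 stand higher in red than in blue there.

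The members under 1 FPKM that are given with values here were chosen after their values were seen. Hand2, a bHLH factor of the heart, limb and sympathetic neurons (chr8:59799780-59803314), was listed at 0 in Cd73N WT and in Cd73P WT, at 0.417 FPKM [0.291 to 0.541] in Cd73N Ezh2-CKO and at 0.0414 [0.00942 to 0.0754] in Cd73P Ezh2-CKO. It was listed over 0 in both libraries labelled Ezh2-CKO and in neither WT library. Both of its WT bounds were listed at 0 as well, so any lower bound over 0 stands apart from them. Twist2, a factor of dermal mesenchyme, was listed in Cd73N at 0.195 FPKM [0.0823 to 0.296] in WT and 0.0976 [0.0275 to 0.165] in Ezh2-CKO with overlapping bounds, and was listed at 0 in both Cd73P libraries. Hand1 was listed at 0 throughout.

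Among the weak T-box genes, Tbr1, a factor of cortical neurons and of a subset of retinal ganglion cells (chr2:61642510-61652170), was listed at 0.177 FPKM [0.119 to 0.234] in Cd73N WT, 0.603 [0.49 to 0.713] in Cd73N Ezh2-CKO, 0.0231 in Cd73P WT and 0.0446 in Cd73P Ezh2-CKO. Its Cd73N difference was 0.45 on the log2 scale (SE 0.061) and its bounds were apart there. Eomes, the related factor of another ganglion cell subset, was listed at 0.176 FPKM in Cd73N WT and 0.26 in Cd73N Ezh2-CKO with overlapping bounds, and at 0.000641 and 0.0275 in Cd73P WT and Cd73P Ezh2-CKO. Ganglion cell markers moved beside them only in part. Their summed FPKM over 10 genes was 17.4 in Cd73N WT, 43.5 in Cd73N Ezh2-CKO, 3.9 in Cd73P WT and 2.17 in Cd73P Ezh2-CKO. In Cd73N 2 were higher and 1 lower, and Thy1 alone went from 6.52 to 30.3 FPKM there. The lower was Sncg, at 2.04 FPKM in Cd73N WT and 0.682 in Cd73N Ezh2-CKO. Isl2, Nefl and Nefm did not pass 1.5-fold in Cd73N. Of the defining markers, Pou4f1 was listed at 0.168 FPKM in Cd73N WT and 0.581 in Cd73N Ezh2-CKO, close to the values of Tbr1 there. In Cd73P it was unlike Tbr1, at 0.255 FPKM in WT and 0.0211 in Ezh2-CKO. Pou4f2 was under 1 FPKM in all 4 libraries and Pou4f3 was listed at 0 in each. Slc17a6, the glutamate transporter of ganglion cells, was listed at 0.771 and 2.01 FPKM in the Cd73N libraries. Eomes is used in intrinsically photosensitive ganglion cells. Of 5 genes listed for these cells, 1 was lower in Cd73N Ezh2-CKO, Irx6, at 34.7 FPKM in WT and 4.61 in Ezh2-CKO, and 0 were higher. The photopigment of these cells, Opn4, was under 0.1 FPKM in all 4 libraries, so Irx6 is not read as a measure of them. The part of these cells in the Tbr1 and Eomes values was not tested.

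Tbx15, a factor of skeletal and muscle mesenchyme (chr3:99057683-99158183), was listed at 0.438 FPKM [0.327 to 0.545] in Cd73N WT, 0.824 [0.678 to 0.972] in Cd73N Ezh2-CKO, 0.111 in Cd73P WT and 0.0962 in Cd73P Ezh2-CKO. Tbx20, a heart factor (chr9:24525256-24578747), was listed at 0.0352 [0 to 0.0928], 0.199 [0.13 to 0.27], 0.00108 and 0.0344 in the same order. Both stood higher in Cd73N Ezh2-CKO with bounds apart, by 0.34 (SE 0.08) and 0.21 (SE 0.058) on the log2 scale. Tbx18, a marker of pericytes and vascular smooth muscle, was listed at 0.371 FPKM in Cd73N WT and 0.383 in Cd73N Ezh2-CKO, and under 0.1 FPKM in both Cd73P libraries. Its 2 Cd73N values differed by 0.01 on the log2 scale (SE 0.059). Tbx6, a factor of the paraxial mesoderm, had its highest value in Cd73P WT, at 0.285, 0.191, 0.533 and 0.251 FPKM in Cd73N WT, Cd73N Ezh2-CKO, Cd73P WT and Cd73P Ezh2-CKO. Its bounds overlapped between Cd73N WT [0.164 to 0.403] and Cd73P WT [0.343 to 0.711], and in the other comparisons. Tbx1, of the pharyngeal region, reached 0.103 FPKM, and the remaining Tbx4, Tbx10, Tbx19, Tbx21 and Tbx22 stayed under 0.1 FPKM everywhere.

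The GATA factors, zinc finger proteins that govern blood lineages (Gata1 to Gata3) and heart and gut (Gata4 to Gata6), were almost silent. Their summed FPKM was 0.194 in Cd73N WT, 0.288 in Cd73N Ezh2-CKO, 0.0656 in Cd73P WT and 0.0308 in Cd73P Ezh2-CKO. Gata2 reached the highest level, at 0.0852 FPKM [0.0399 to 0.126] in Cd73N WT and 0.184 [0.122 to 0.245] in Cd73N Ezh2-CKO, with bounds that just overlapped, and at 0.0645 and 0.0138 in Cd73P WT and Cd73P Ezh2-CKO. Gata1, the erythroid factor, was listed at 0.0942 and 0.0675 FPKM in the 2 Cd73N libraries in that order and at 0 in both Cd73P libraries. Red blood cell markers, 7 genes, showed the same split between fractions, with summed FPKM of 3210 and 2980 in Cd73N WT and Cd73N Ezh2-CKO and of 24.7 and 20.1 in Cd73P WT and Cd73P Ezh2-CKO. Gata3, Gata5 and Gata6 stayed under 0.1 FPKM in all 4 libraries. The part of blood cells in the Gata1 values was not tested.

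The NK homeobox genes specify ventral neural tube, lung, thyroid, heart and gut fates. Nkx2-2, Nkx2-3, Nkx2-4, Nkx2-5, Nkx2-6 and Nkx3-2 were listed at 0 in all 4 libraries. Nkx6-1 and Nkx6-2, factors of motor neurons, pancreas and oligodendrocytes, stayed under 0.1 FPKM in all 4 libraries, as did Nkx1-2, Nkx2-1, Nkx2-9 and Nkx6-3. Nkx6-1 was listed at 0.0542 FPKM in Cd73N WT and 0.0567 in Cd73N Ezh2-CKO and at 0 in both Cd73P libraries. Nkx2-1, a master factor of lung and thyroid, lies 74.5 kb from Nkx2-9. Nkx2-2 and Nkx6-2 overlap Nkx2-2as and Inpp5a, and reads of overlapping genes cannot be told apart without strand.

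**Figure D3:**
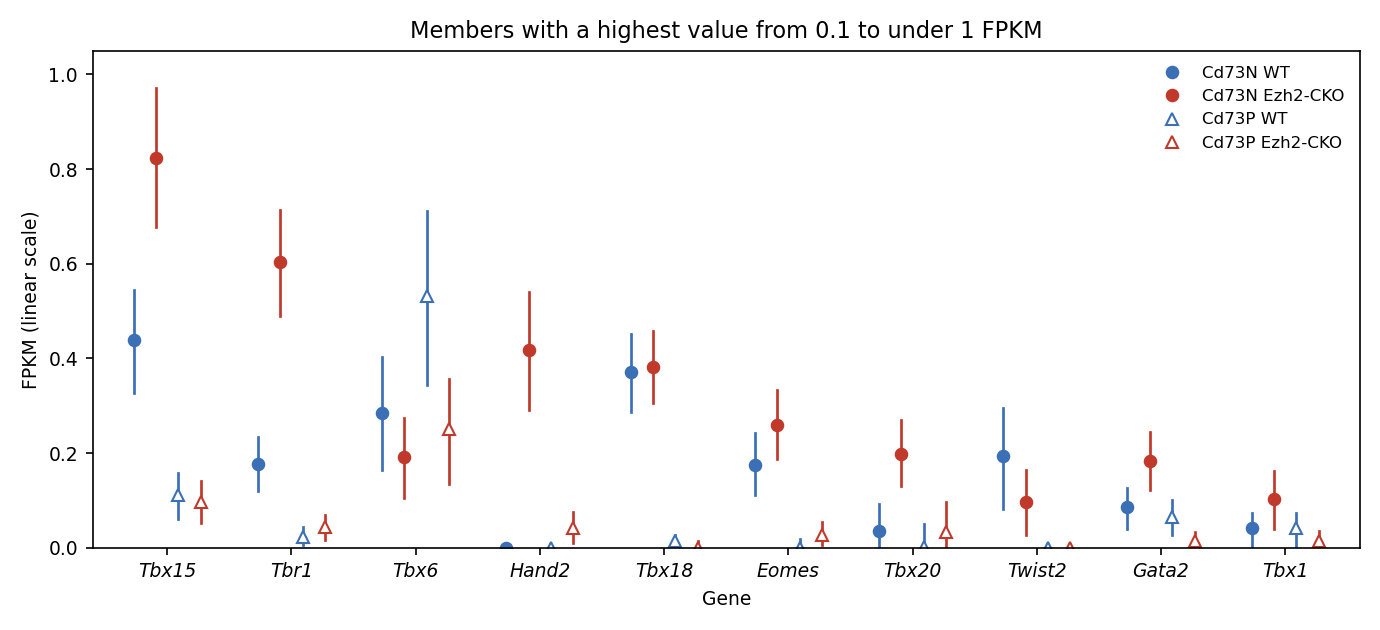
FPKM, on a linear axis, of weak members whose highest value lay between 0.1 and 1 FPKM; points, lines, shapes and colours are as in the plot of Tbx2, Tbx3, Tbx5 and Twist1. Hand2 is listed at 0 in both WT libraries and at 0.417 FPKM in Cd73N Ezh2-CKO and Tbx18 lies at 0.371 and 0.383 FPKM in Cd73N.

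Counted over all members, 3 of 38 (Tbx3, Tbx5 and Twist1) were at least 1.5-fold higher in Cd73N Ezh2-CKO than in Cd73N WT, a share of 7.89% against 7.18% of all genes. None was lower by that rule, against 1.7% of all genes. The members' share was thus near the background. The median log2 difference was 0.01 over all 38 members and 0 over all genes, and most members sat at or near 0 in both libraries.

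The bounds gave a finer count. In Cd73N the deposited bounds were apart and higher in Ezh2-CKO for 8 members (21.1%), among them Tbr1, Tbx3, Tbx5, Tbx15, Tbx20, Hand2 and Twist1. Over all genes this share was 20.6%. For Hand2, with WT bounds of 0, the bounds are apart wherever the Ezh2-CKO lower bound is over 0. Only Tbx2 had bounds apart and lower, 2.63% of members against 19.4% of all genes. Because bounds of weak genes are wide, the count was repeated, in an alternative chosen after seeing the data, over genes with a mean of 0.05 to under 1 FPKM over the 4 libraries. Of the 12 members in that band, 7 (58.3%) were higher with bounds apart and 0 lower, while the shares over the 3869 genes of the band were 30.9% higher and 3.64% lower. Hand2 and Tbx20 enter the band through Cd73N Ezh2-CKO, the library where they stood high, so nothing is read from these shares.

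In Cd73P, 0 of 38 members were higher and 1, Tbx2, was lower in Ezh2-CKO than in WT at 1.5-fold, against 2.25% and 2.38% of all genes. Only Tbx2 reached 1 FPKM in a Cd73P library. Members far below that level in both libraries cannot pass 1.5-fold on this scale, so the 0 does not show an absence of change. By the bounds, 4 members (10.5%), among them Tbx3, Hand2 and Twist1, were higher and 2 (Tbx2 and Tbx5; 5.26%) lower, against 10.6% and 16.3% of all genes. In the band of weak genes 3 of 12 members were higher and 1 lower, against 8.43% and 8.45% of the genes of the band. Hand2, 1 of the 3, enters the band through Cd73N Ezh2-CKO, and nothing is read from these shares either. Tbx3 and Twist1 were thus higher with bounds apart in the library labelled Ezh2-CKO of both fractions. Tbx2 was lower in both, and Tbx5 changed sign. Hand2 was also higher in both, but its WT bounds of 0 leave any lower bound over 0 apart.

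**Figure D4:**
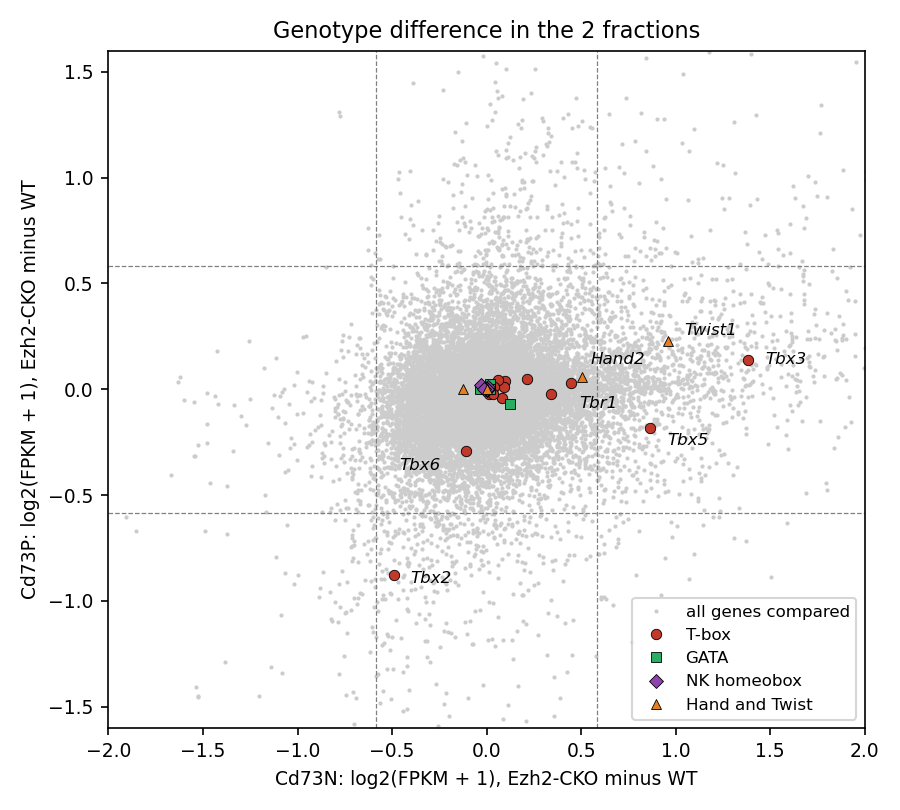
Difference of log2(FPKM + 1) between Ezh2-CKO and WT in Cd73N (horizontal) and Cd73P (vertical); each grey point is a gene, coloured symbols are members by family, and dashed lines mark 1.5-fold (169 genes lie outside the plotted range). Tbx3, Tbx5 and Twist1 lie to the right of the 1.5-fold line in Cd73N, Tbx2 lies below it in Cd73P, and most other members sit near 0 on both axes.

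Between the fractions, Tbx2, Tbx3, Tbx5 and Twist1 had their highest values in Cd73N. Tbx3, Tbx5 and Twist1 reached 1 FPKM only there, so their place among the expressed members rests on that fraction. Comparisons between the fractions use the same 4 libraries as the genotype comparisons and are not independent of them. In WT, Tbx2, Tbx3, Tbx5 and Twist1 were lower in Cd73P than in Cd73N at 1.5-fold, 4 of 38 members (10.5%) against 27.9% of all genes, and 0 were higher, against 9.06%. The log2 differences were -3.99 for Tbx2, -1.14 for Tbx3, -0.62 for Tbx5 and -0.71 for Twist1, and on plain FPKM Tbx2 was 19.3-fold lower. In the libraries labelled Ezh2-CKO, 6 members (Tbr1, Tbx2, Tbx3, Tbx5, Tbx15 and Twist1; 15.8%) were lower in Cd73P, against 29.1% of all genes, and 0 were higher, against 8.39%. There the log2 differences were -4.38 for Tbx2, -2.39 for Tbx3, -1.67 for Tbx5 and -1.44 for Twist1. Scaling the libraries by their median ratio or by their FPKM sum shifted all genes by 0.34 or 0.42 in WT and by 0.30 or 0.22 in Ezh2-CKO. Tbx5 in WT was then at -0.55 or -0.48, short of 1.5-fold, and the count of members lower in WT was 3.

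The sequence before the start of 4 of the 8 members with bounds apart and higher in Cd73N Ezh2-CKO is shown because these genes stood higher together in that library, and Polycomb silencing is known for its link to CpG-rich DNA. Each run is the 250 bases before the gene's start from RefSeq promoter entries (GRCm38.p6), 5′ to 3′ on the gene's strand, with CpG pairs in capitals. An exact match placed them on mm9 at chr12:34642286-34642535 for Twist1, chr8:59799530-59799779 for Hand2 and chr2:61642260-61642509 for Tbr1, all on the plus strand, and at chr9:24578748-24578997 on the minus strand for Tbx20.
Twist1: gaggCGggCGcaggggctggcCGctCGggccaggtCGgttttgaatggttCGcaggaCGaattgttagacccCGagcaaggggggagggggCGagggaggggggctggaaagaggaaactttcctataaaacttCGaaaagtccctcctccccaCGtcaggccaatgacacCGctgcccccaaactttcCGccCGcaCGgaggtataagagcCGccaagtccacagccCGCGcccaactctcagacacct
Hand2: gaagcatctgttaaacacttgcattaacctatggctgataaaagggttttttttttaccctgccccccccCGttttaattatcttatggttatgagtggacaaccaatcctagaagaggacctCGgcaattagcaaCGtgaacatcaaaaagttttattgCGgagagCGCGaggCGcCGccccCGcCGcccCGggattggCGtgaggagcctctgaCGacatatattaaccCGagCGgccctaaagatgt
Tbr1: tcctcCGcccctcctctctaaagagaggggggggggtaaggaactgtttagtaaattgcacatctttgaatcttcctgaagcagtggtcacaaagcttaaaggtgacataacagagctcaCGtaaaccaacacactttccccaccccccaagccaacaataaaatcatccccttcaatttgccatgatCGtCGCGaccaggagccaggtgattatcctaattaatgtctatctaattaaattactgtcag
Tbx20: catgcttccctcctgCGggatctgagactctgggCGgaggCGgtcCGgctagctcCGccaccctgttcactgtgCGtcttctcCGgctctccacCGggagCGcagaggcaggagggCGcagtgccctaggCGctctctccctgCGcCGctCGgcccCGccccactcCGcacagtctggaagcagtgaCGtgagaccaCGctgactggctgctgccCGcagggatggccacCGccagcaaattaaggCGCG
Twist1 held 18 CpG pairs, Hand2 15, Tbr1 5 and Tbx20 22, so CpG density was not shared: Tbr1 had an observed over expected CpG ratio of 0.41 and the others 0.74 to 0.99. A promoter entry was matched for 28 of the 38 members, and Tbx2, Tbx3, Tbx5 and Tbx15 were not among them. Of these, 15 (53.6%) had over 50% GC and a CpG ratio over 0.6, against 46.2% of 15102 genes, with a median of 15 CpG pairs against 12. Twist1 and Tbx20 passed both marks, while Hand2, at 49.2% GC, and Tbr1 did not. The bHLH motif CANNTG, read on both strands, lay in 67.9% of members and 66.1% of genes, and the GATA motif AGATAA in 17.9% and 10.1%. The T-box motif GGTGTGA and the NK motif CACTTAA were in 0 of the 28 members and in 3.68% and 2.19% of genes. These shares describe letters in a 250-base window and not binding.

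Genes that act with these factors were taken from lists written with earlier results of these data known. Of 15 genes of dorsoventral patterning in the retina, 8 were higher and 0 lower in Cd73N Ezh2-CKO, against 7.18% and 1.7% of all genes. Cyp26a1, which degrades retinoic acid, went from 3.04 FPKM in Cd73N WT to 35.4 in Cd73N Ezh2-CKO. Aldh1a1 and Aldh1a2, which make retinoic acid, went from 24.5 to 105 and from a listing at 0 to 3.47 FPKM. Bmpr1b, a receptor of the dorsal signal BMP, went from 1.52 to 10.2 FPKM. The list holds both dorsal and ventral genes. Of the ventral factors, Vax1 went from 0.583 to 2.08 FPKM between the same libraries and Vax2 was listed at 17.5 and 19.3. In Cd73P, 3 of the 15 were higher and 0 lower, and Vax2 was 1 of the 3, at 20.7 FPKM in WT and 45 in Ezh2-CKO.

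Among 7 bHLH partners of Hand and Twist, the 4 Id genes, whose products bind bHLH partners and block DNA binding, were all higher in Cd73N Ezh2-CKO. Id1 went from 25 to 142 FPKM, Id2 from 23.9 to 140, Id3 from 46.9 to 240 and Id4 from 2.58 to 9.16. The E proteins Tcf3, Tcf4 and Tcf12, which pair with Twist and Hand for DNA binding, did not pass 1.5-fold, with log2 differences of 0.18, 0.21 and -0.13. In Cd73P, Id1, Id2 and Id3 were higher and Id4 lower. Of 6 genes of the Groucho family, which holds corepressors of NK and T-box factors, 2 were lower in Cd73N Ezh2-CKO and 0 higher. The lower were Tle6, from 23.3 to 7.65 FPKM, and Aes, from 379 to 231, while Tle1, Tle2, Tle3 and Tle4 did not pass 1.5-fold there. Of 7 GATA cofactors only Tal1, under 1 FPKM in all 4 libraries, was higher in Cd73N Ezh2-CKO, and in Cd73P only Lmo2, at 2.45 FPKM in WT and 8.86 in Ezh2-CKO. Of 13 genes listed with PRC2, 0 passed 1.5-fold in Cd73N and 1, Kdm6b, was lower in Cd73P Ezh2-CKO, at 10.2 FPKM in WT and 5.51 in Ezh2-CKO. Kdm6b encodes a demethylase that removes the PRC2 mark and not a PRC2 subunit.

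Markers of other cells moved with these differences. All 9 Müller glia markers were higher in Cd73N Ezh2-CKO, with summed FPKM of 1080 in Cd73N WT, 5570 in Cd73N Ezh2-CKO, 114 in Cd73P WT and 237 in Cd73P Ezh2-CKO, and 7 of 9 were higher in Cd73P Ezh2-CKO. None was listed at 0 in any library. The part of Müller glia in the higher Tbx3, Tbx5, Twist1 and Id values was not tested. Of 8 bipolar markers, 5 were lower in Cd73N Ezh2-CKO (summed FPKM 1430 in WT and 842 in Ezh2-CKO) and 6 in Cd73P Ezh2-CKO (101 and 48.4). Rod markers, 8 genes, summed to 873 and 875 FPKM in the Cd73N libraries and to 12400 and 17800 in the Cd73P libraries. Behind the like sums in Cd73N, 5 of the 8 were lower and 0 higher in Ezh2-CKO, among them Nrl at 27.7 and 11 FPKM and Nr2e3 at 16.8 and 5.09, while in Cd73P 2 were higher and 0 lower.

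For the mesenchymal factors Twist1, Hand2, Tbx15 and Tbx18, the vessel wall and connective tissue lists were set beside them. Of 10 pericyte and smooth muscle markers 0 were higher or lower in Cd73N, with summed FPKM of 268 in Cd73N WT, 302 in Cd73N Ezh2-CKO, 8 in Cd73P WT and 4.3 in Cd73P Ezh2-CKO. Of 9 fibroblast and mesenchyme markers 0 were higher or lower in Cd73N, with sums of 19 and 20.9 FPKM there and 1.54 and 1.62 in Cd73P. The defining pericyte gene Pdgfrb was listed at 19.7 and 21.2 FPKM in the 2 Cd73N libraries. Of 10 endothelial markers, 2 were higher and 1 lower in Cd73N Ezh2-CKO. Their sums were 61.9 FPKM in Cd73N WT, 130 in Cd73N Ezh2-CKO, 10.1 in Cd73P WT and 8.69 in Cd73P Ezh2-CKO. The 2 higher in Cd73N, Kdr from 22.6 to 86.2 FPKM and Flt1 from 2.86 to 16.2, carried the difference between the Cd73N sums. Esam was the lower, from 23.9 to 13.3 FPKM, and the rest did not pass 1.5-fold there. Of 9 leukocyte and microglia markers 3 were higher, with sums of 64.3 and 95.8 FPKM in Cd73N and 13.4 and 17.8 in Cd73P. The part of pericytes, fibroblasts, endothelium and leukocytes in the values of the mesenchymal factors was not tested.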

How the data were processed

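Per the study's methods and the submitters' processing notes, poly(A) RNA was made into unstranded Illumina libraries, and 36-base single-end reads (bcl2fastq 1.8.4) were aligned by the authors to mm9 with TopHat2 2.0.8b, with coverage search and up to 50 hits per read. The deposited FPKM values and their lower and upper bounds were computed by the authors with Cufflinks 2.1.1 on RefSeq genes, at default options and without scaling between libraries. Of usable rows over 1 FPKM, 25% to 27.8% per library had a value past the upper bound given for it. Read totals were not part of the tables, so depth is unknown.

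Rows of 1 symbol were summed (251 symbols), 730 symbols of small RNAs were dropped by name, and genes were kept where the Cufflinks status was OK in all 4 libraries. Coordinates are the listed start plus 1. Libraries were compared as log2(FPKM + 1), with a pseudocount of 1, a threshold of 1.5-fold on that scale, and SE from the bounds, their width taken as 4 SE. Groups came from the sample labels. Comparisons were made between genotypes within each fraction and between fractions within each genotype. With 1 library per group no test was possible. The counting script was tested on simulated data. Ezh2 and Nt5e were named as checks, every member of at least 1 FPKM in a library was named with its values, and up to 4 genes of each further list, those with the largest Cd73N difference past 1.5-fold. Some results that met this rule or its additions are not reported here. The members and lists were chosen with earlier results of these data known. Alternatives covered pseudocounts of 0.1 and 5, scaling, thresholds, filters and overlap of bounds. Python 3.11.15, pandas 2.3.3, NumPy 2.4.6 and Matplotlib 3.10.9 were used.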

Additional observations from a re-analysis of the deposited data

Results flagged for a closer look

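Tbx5 and Tbx15 had genotype differences of opposite sign in the 2 fractions. For Tbx5 the log2 difference in Cd73P minus that in Cd73N was -1.05, and for Tbx15 it was -0.36, where the Cd73P difference itself was -0.02 (SE 0.043). With 1 library per group, neither difference between the fractions was tested.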

How the results depend on the processing

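No paired analysis was possible because each group held 1 library, and for the same reason no replicate was left out. The main limits are the missing replicates, the unknown depth and the low level of most members, for which counting bounds are wide. For Tbx2, Tbx3, Tbx5 and Twist1 no direction reversed under the 2 scalings. The pseudocounts of 0.1 and 5 could not reverse a direction, because the sign of a difference does not depend on the pseudocount. Of the values of these 4 members under another pseudocount or scaling, 37 moved by more than about 2 SE and 27 did not. Under both scalings every count of members stayed within 1.5 times.

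Members higher in Cd73N Ezh2-CKO, 3 in the report, numbered 10 with a pseudocount of 0.1, 1 with a pseudocount of 5, 1 at 2-fold, 1 as a ratio without pseudocount, 8 by bounds that do not overlap, and 7 by bounds in the weak band. Members lower numbered 1 by bounds in place of 0. In Cd73P, members higher numbered 3 with a pseudocount of 0.1, 4 by bounds and 3 in the weak band in place of 0, and members lower 3 with a pseudocount of 0.1, 0 with a pseudocount of 5, 0 at 2-fold and 2 by bounds in place of 1. The weak band was chosen after seeing the data. Hand2 and Tbx20 enter it through Cd73N Ezh2-CKO, so nothing is read from the counts in that band.

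Members lower in Cd73P WT than in Cd73N WT, 4 in the report, numbered 12 with a pseudocount of 0.1, 1 with a pseudocount of 5, 2 at 2-fold, 2 with a minimum of 1 FPKM, 1 without pseudocount and 12 by bounds, and 1 was higher with a pseudocount of 0.1. In the Ezh2-CKO libraries, 6 in the report, they numbered 17 with a pseudocount of 0.1, 2 with a pseudocount of 5, 1 without pseudocount and 16 by bounds. The share over all genes was not computed for these alternatives between the fractions. Nor was it computed for the genotype counts with another pseudocount, at 2-fold or without pseudocount. None of these counts is read as a trait of the families.

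Medians over T-box members of at least 1 FPKM are descriptions only, since some members pass that minimum through the library where they are high. In Cd73N the T-box median, 0.87 over members of at least 1 FPKM, was 1.35 with a pseudocount of 0.1, 0.34 with 5, 0.084 over all 15 T-box genes and 0.59 as a mean. Between the fractions in WT, where it was -2.57, it was -3.71 with a pseudocount of 0.1, -1.79 with 5, -2.42 and -2.31 after scaling by the median ratio and by the sum, and -0.09 over all T-box genes. In the Ezh2-CKO libraries, where it was -2.39, it was -4.29 with a pseudocount of 0.1, -0.97 with 5, -0.21 over all T-box genes and -2.81 as a mean. A low pseudocount gives weak genes more weight by construction.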
